A study of Mus musculus with 6 samples.

Results

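GABA is the main inhibitory transmitter of the brain, and the genes described here make it, move it, break it down, receive it and set the chloride gradient on which its ionotropic receptors act. They are 26 genes of 53801 in the table, chosen by symbol: Gad1, Gad2, Slc32a1, Slc6a11, Slc6a13, Abat, 16 genes for subunits of ionotropic GABA receptors (named one by one below), the GABAB receptor genes Gabbr1 and Gabbr2, and the chloride cotransporter genes Slc12a2 and Slc12a5. RNA-seq counted polyadenylated transcripts in the whole brains of 6 C57BL/6 mouse embryos taken on embryonic day 16.5. The 3 Bahd1-KO embryos had the genotype Bahd1-/- and the 3 Bahd1-WT embryos Bahd1+/+, with no treatment in either group, and the comparison asked what loss of BAHD1, a scaffold of repressive chromatin complexes, changed before birth. Embryos came from crosses of heterozygous parents, and the loss of Bahd1 was not limited to the brain. In bulk tissue, fewer cells of a type and less RNA per cell cannot be told apart.

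Glutamate decarboxylases make GABA from glutamate, a vesicular transporter loads it, plasma membrane transporters take it up again, and GABA transaminase breaks it down. GABAA receptors are pentameric chloride channels assembled from subunits of several families, while GABAB receptors are heterodimers that signal through G proteins. In immature neurons the importer NKCC1, encoded by Slc12a2, keeps chloride inside the cell high and GABA depolarises. The exporter KCC2, encoded by Slc12a5, rises as neurons mature and GABA becomes inhibitory.

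Bahd1 itself had 2, 10 and 6 counts in Bahd1-KO replicates 1, 2 and 3, against 1971, 3102 and 3470 in Bahd1-WT replicates 1, 2 and 3. The libraries held 61724000 to 91782802 counts. Bahd1-KO replicate 3 stood apart: protein-coding genes, the mitochondrial ones included, took 53.47% of its counts (53.46 to 53.48%, 95% Wilson interval), while in the other 5 embryos they took 97.8 to 98.4%. Together the 26 genes took 0.111% of all counts in this embryo and 0.172 to 0.235% in the others. As a share of protein-coding counts the embryo lay among the rest, at 0.208% against 0.175 to 0.239%. Its genes for GABAergic neurons (a list of 10, Dlx1 among them) summed to 99.8 CPM, counts per 1e6 counts of a total scaled for library composition, against 457 to 578 CPM in the other 5. All 10 were lowest there, Dlx1 with 299 counts against 9342 to 16337. Log2 differences without this embryo are given below beside those that moved by over 1.5 times or turned sign. Labels do not say whether embryos shared a litter, so p-values measure the spread between these embryos.

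Promoters of the member genes ranged from CpG-rich to nearly CpG-free. The 6 sequences below were chosen to show that range, from genes with widely differing values between embryos (Gabra6, Gabrp, Gabra3, Slc32a1) and others of the CpG-rich kind. Each is the 250 bases before a RefSeq start on build GRCm38.p6, 5′ to 3′ on the gene's strand, with CpG dinucleotides in capitals. They come from Gabra6 (chr11:42321073-42321322, minus strand), Gabrp (chr11:33578958-33579207, minus strand), Gabra3 (chrX:72656920-72657169, minus strand, the more upstream of 2 starts), Gabra2 (chr5:71095850-71096099, minus strand), Slc32a1 (chr2:158610508-158610757, plus strand) and Slc6a11 (chr6:114130991-114131240, plus strand).
Gabra6: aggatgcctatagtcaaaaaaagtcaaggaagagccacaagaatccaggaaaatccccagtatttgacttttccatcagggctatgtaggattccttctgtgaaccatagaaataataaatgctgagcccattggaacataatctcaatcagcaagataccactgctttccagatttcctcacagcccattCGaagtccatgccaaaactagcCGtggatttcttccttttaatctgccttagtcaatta
Gabrp: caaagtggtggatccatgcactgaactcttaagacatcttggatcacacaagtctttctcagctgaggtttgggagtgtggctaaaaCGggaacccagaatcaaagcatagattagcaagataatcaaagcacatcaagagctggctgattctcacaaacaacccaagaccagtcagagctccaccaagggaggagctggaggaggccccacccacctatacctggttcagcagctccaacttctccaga
Gabra3: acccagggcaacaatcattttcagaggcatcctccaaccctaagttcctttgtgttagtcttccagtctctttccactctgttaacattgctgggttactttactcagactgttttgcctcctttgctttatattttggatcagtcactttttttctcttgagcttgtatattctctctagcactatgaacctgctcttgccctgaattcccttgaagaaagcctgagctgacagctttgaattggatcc
Gabra2: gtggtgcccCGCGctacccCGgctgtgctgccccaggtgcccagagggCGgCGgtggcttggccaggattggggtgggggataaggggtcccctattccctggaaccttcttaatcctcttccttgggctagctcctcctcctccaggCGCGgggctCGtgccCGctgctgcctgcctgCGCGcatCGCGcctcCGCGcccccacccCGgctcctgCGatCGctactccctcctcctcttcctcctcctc
Slc32a1: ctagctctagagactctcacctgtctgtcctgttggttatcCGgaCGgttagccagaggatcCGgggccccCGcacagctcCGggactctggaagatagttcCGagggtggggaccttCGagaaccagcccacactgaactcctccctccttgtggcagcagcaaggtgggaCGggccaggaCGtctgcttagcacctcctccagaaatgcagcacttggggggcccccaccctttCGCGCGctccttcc
Slc6a11: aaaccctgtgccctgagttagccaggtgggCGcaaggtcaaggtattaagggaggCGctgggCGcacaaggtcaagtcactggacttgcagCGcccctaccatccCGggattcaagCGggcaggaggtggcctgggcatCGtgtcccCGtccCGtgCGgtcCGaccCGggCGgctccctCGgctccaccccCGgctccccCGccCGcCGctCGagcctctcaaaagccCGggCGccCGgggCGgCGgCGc

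The Gabra6 window held 2 CpG, that of Gabrp 1 and that of Gabra3 none, whereas those of Gabra2, Slc32a1 and Slc6a11 held 18, 12 and 25. The median over 32851 RefSeq promoter windows of the same length was 6. RefSeq windows were examined for 23 of the 26 genes, giving 30 windows. Slc12a2 was left out of the search because of its chromosome, and no window was found for Gabrd or Abat. The median and the shares over all windows had no such exclusion. Searched on both strands, the letters GGGCGG, which hold a CpG themselves, stood in 13 of 30 windows and in 32.7% of all windows, TATAAA in 4 of 30 and 12.4%, and TAATTA in 1 of 30 and 4.84%. The 4 windows with TATAAA were 2 overlapping ones of Gabra3, which share the match, 1 of Gabrb2 and 1 of Gad1. A match describes these letters and not a bound site.

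No member gene was called between the genotypes. All 26 passed the filter on low counts, and in edgeR's quasi-likelihood test their Benjamini-Hochberg adjusted p ran from 0.696 to 0.997, where 1 of 24739 genes (Bahd1, 0.00404%) passed 0.05. DESeq2 called 0 of the members to which it gave an adjusted p, beside 0.0371% of all genes with one. Voom with embryo weights and edgeR's likelihood ratio test called 0 members too. Without Bahd1-KO replicate 3, edgeR called 0 members beside 0.0171% of genes. At an unadjusted p under 0.05 a single member was higher, Gabrp, and 0 were lower, beside 4.51% and 0.166% of all genes. Fitted log2 differences (Bahd1-KO minus Bahd1-WT) were above 0 for 10 of 26 members (38.5%) and for 53.8% of all genes tested. Their median was -0.10, beside 0.06 for all genes. Without Bahd1-KO replicate 3 the median was 0.04 beside -0.01 for all genes, and 14 of 26 were above 0. Leaving that embryo out turned the sign of 8 members. It was the highest of the 6 embryos for 6 members (23.1%, beside 38.1% of all genes), the lowest for 12 (46.2%, beside 36%) and between the others for 8.

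**Figure D1:**
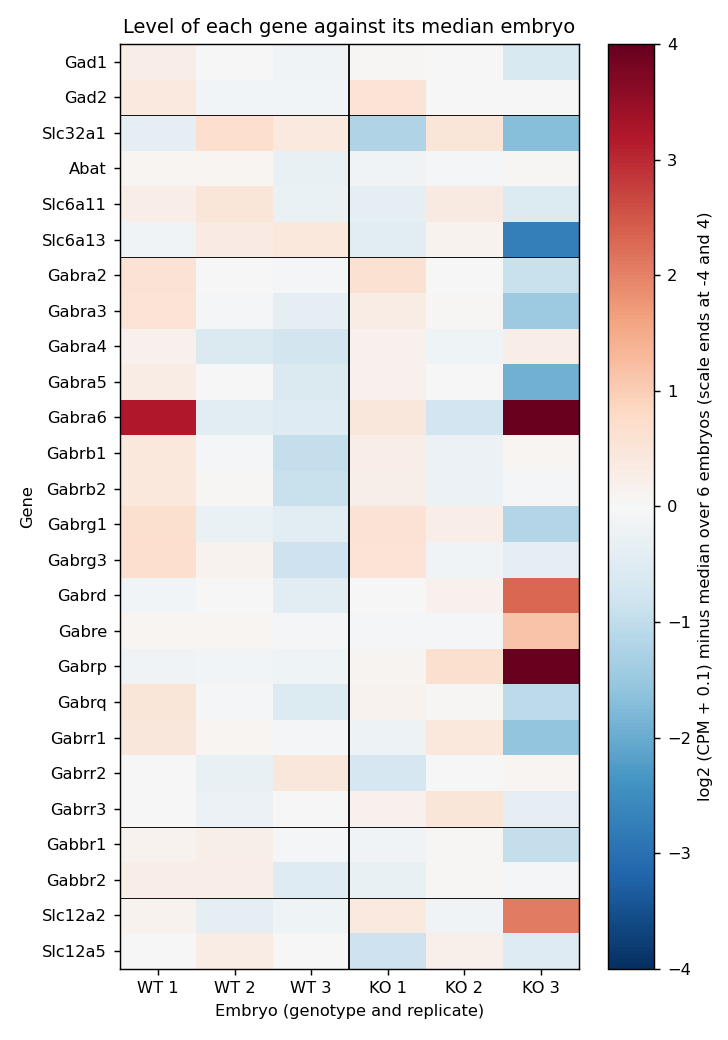
Deviation of each member gene in each embryo, as log2(CPM + 0.1) minus the median of the 6 embryos, with genes in rows, embryos in columns and colour from -4 to 4. The column of Bahd1-KO replicate 3 carries the strongest colours, high for Gabra6, Gabrp, Gabrd and Slc12a2 and low for Slc6a13, Gabra5 and Slc32a1.

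Per kilobase of exon, Gabbr1 had the highest mean level in Bahd1-WT brains, 59.6 ± 5.90 CPM per kilobase (SD, n = 3), followed by Gabra3 at 39.2 ± 12.7, Gad2 at 23.5 ± 4.84, Gabra5 at 23.1 ± 6.68 and Gad1 at 20.3 ± 3.01. Gabbr1, Gabra3 and Gad2 stood apart from each other by more than the larger SD of each pair. From Gad2 down to Slc12a5, at 13.0 ± 1.64, neighbours in the order did not, nor did neighbours from Slc32a1 (8.85 ± 3.01) down to Gabrg3 (2.16 ± 1.01). At the low end stood Gabrr1, Gabrr2 and Gabrr3, the pi subunit gene Gabrp and the cerebellar subunit gene Gabra6, all under 0.3 CPM per kilobase on average. Of the 26 genes, 20 reached 1000 counts in at least 1 embryo, and 3 stayed under 50 counts in all of them.

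**Figure D2:**
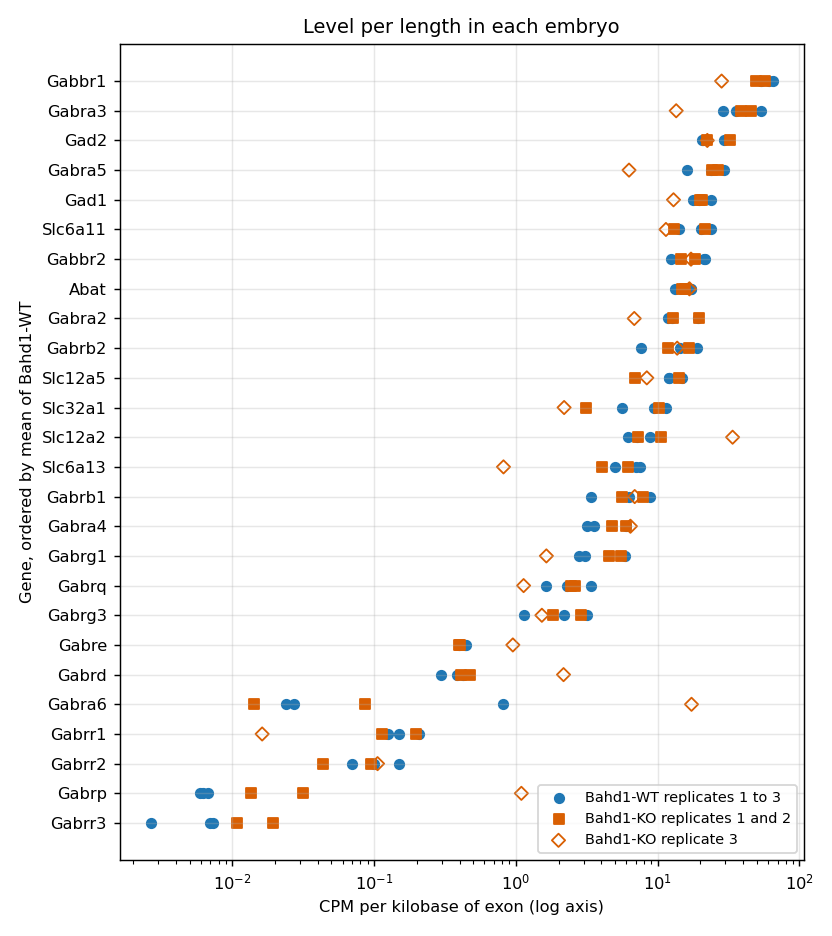
CPM per kilobase of exon (log axis) of the 26 genes in each of 6 embryos, in order of the Bahd1-WT mean. Points of Bahd1-KO replicate 3 for Gabra6 (17.3) and Gabrp (1.09) lie far above the other 5, and its value of 0 for Gabrr3 is not drawn.

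Synthesis genes differed little between genotypes. Gad1, for the decarboxylase that supplies most basal GABA, stood at 157, 152 and 98.7 CPM in Bahd1-KO replicates 1 to 3 and at 181, 148 and 136 in Bahd1-WT replicates 1 to 3. Only Bahd1-KO replicate 3 fell outside the wild-type range, below it, and the log2 difference was -0.19 (SE 0.27), or -0.02 without it. Gad2, for the synaptic form of the enzyme, stood at 190.0, 131 and 131 CPM against 171, 122 and 121, overlapping groups with a log2 difference of 0.12 (SE 0.27), or 0.20 without that embryo. Within an embryo the log2 ratio of Gad1 to Gad2 counts was -0.28, 0.22 and -0.41 against 0.08, 0.28 and 0.16. The difference of means, -0.33, gave p = 0.3 in an exact two-sided permutation test, where 3 embryos against 3 cannot go below 0.1. It was -0.20 without Bahd1-KO replicate 3.

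Slc32a1 encodes VGAT, which fills vesicles with GABA and glycine. It varied widely, at 8.76, 28.5 and 6.12 CPM in the Bahd1-KO brains and 15.6, 32.2 and 26.4 in the Bahd1-WT brains. Bahd1-KO replicates 1 and 3 lay below every wild-type embryo while replicate 2 lay among them, and the log2 difference was -0.77 (SE 0.61, edgeR adjusted p = 0.697), or -0.41 without replicate 3 and -1.77 without replicate 2. For every 1 count of Gad1 there were 0.0559, 0.187 and 0.0620 counts of Slc32a1 in the Bahd1-KO brains and 0.0866, 0.217 and 0.194 in the Bahd1-WT brains, a ratio chosen after the values were seen. Replicate 1 was thus the lowest of its genotype on this measure, in both genotypes. Hindbrain markers summed to 0.778 CPM in Bahd1-KO replicate 1, against 10.1 to 62.5 in the others, and their part was not tested.

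The uptake transporters include GAT3, encoded by Slc6a11 and known from astrocytes, and GAT2, encoded by Slc6a13 and known from meninges and liver. Slc6a11 stood at 65.5, 109 and 57.7 CPM in the Bahd1-KO brains and 102, 119 and 70.9 in the Bahd1-WT brains, overlapping groups with a log2 difference of -0.33 (SE 0.33), or -0.17 without Bahd1-KO replicate 3. Slc6a13 stood at 11.8, 18.0 and 2.37 CPM against 14.5, 20.4 and 21.8. Bahd1-KO replicate 3 was at 0.137 times the mean of the other 5, the lowest such ratio among members with over 50 counts in every embryo, and the log2 difference was -0.81 (SE 0.65), or -0.35 without it. Meninges and connective tissue markers went the other way in that embryo, summing to 2633 CPM against 354 to 460, with 7 of the genes highest there, and their part in the result was not tested. Abat, for GABA transaminase, was the steadiest, at 114, 121 and 129.7 CPM against 133, 132 and 102. Its log2 difference was -0.01 (SE 0.22), or -0.07 without Bahd1-KO replicate 3.

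**Figure D3:**
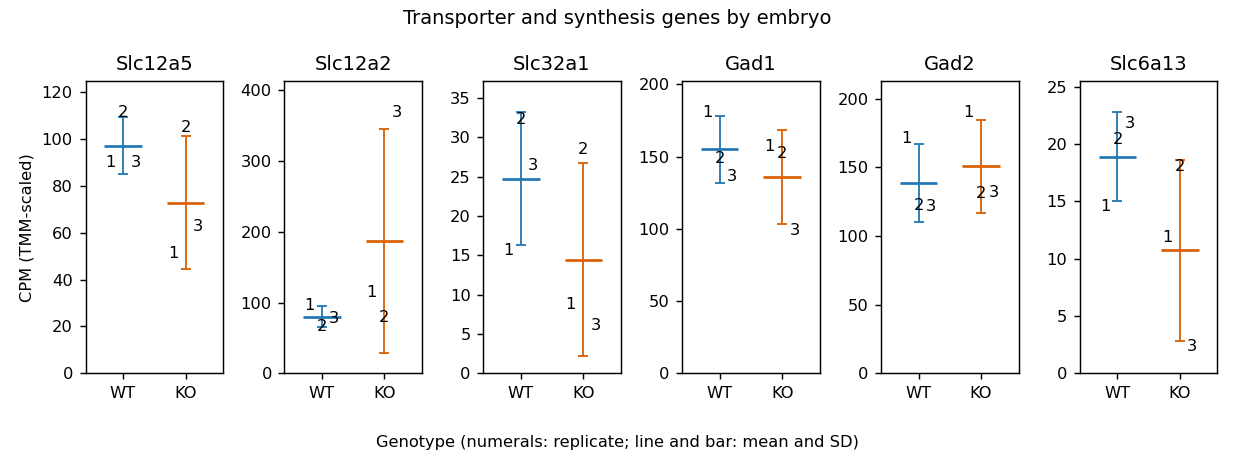
CPM of Slc12a5, Slc12a2, Slc32a1, Gad1, Gad2 and Slc6a13 by genotype, 1 numeral per embryo giving its replicate number, with the mean and SD of 3 embryos. Bahd1-KO replicate 3 is far above the rest for Slc12a2 (368 CPM) and far below for Slc6a13 (2.37 CPM), and the genotypes overlap in every panel.

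Among the alpha subunits, which carry one side of the GABA binding pocket, Gabra3 and Gabra5 were the leading genes per length and are known as forms of the immature brain. Gabra3 stood at 178, 151 and 53.0 CPM in the Bahd1-KO brains and 209.5, 139 and 113 in the Bahd1-WT brains, with a log2 difference of -0.27 (SE 0.47). Gabra5 stood at 79.6, 71.3 and 18.7 CPM against 87.6, 70.8 and 48.0, with -0.28 (SE 0.53). Gabra2, another early form, stood at 149, 97.8 and 52.2 CPM against 146, 95.7 and 90.9, with -0.15 (SE 0.41). For all 3 genes Bahd1-KO replicate 3 lay below the wild-type range, while replicates 1 and 2 lay inside it or, for Gabra2 in replicate 1, marginally above. Without that embryo the log2 differences were 0.08, 0.12 and 0.13.

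Gabra4, which joins extrasynaptic receptors of the mature forebrain and thalamus, stood at 36.2, 29.0 and 39.1 CPM in the Bahd1-KO brains and 36.5, 21.5 and 19.3 in the Bahd1-WT brains. Its log2 difference was 0.43 (SE 0.32), or 0.32 without Bahd1-KO replicate 3. Gabra6, known from granule cells of the postnatal cerebellum, had 14, 3 and 2325 counts in the Bahd1-KO brains and 194, 6 and 6 in the Bahd1-WT brains. Bahd1-KO replicate 3 and, well below it, Bahd1-WT replicate 1 stood above the other 4 embryos. The log2 difference of 4.33 (SE 2.496, edgeR adjusted p = 0.696) became -2.60 without Bahd1-KO replicate 3. Mobp, a myelin gene, had 46, 18 and 16319 counts against 1573, 17 and 23, high in the same pair of embryos. Gabra6 counts per Mobp count were 0.304, 0.167 and 0.142 against 0.123, 0.353 and 0.261. Per count of Pvalb, another mature brain marker, they varied more, at 1.0, 0.0448 and 1.54 against 0.840, 0.176 and 0.0845. Both comparisons were chosen after the values were seen. The summed mature brain markers were 1437 CPM in Bahd1-KO replicate 3 and 203 in Bahd1-WT replicate 1, against 96.4 to 130.1 in the other 4, and their part in the Gabra6 result was not tested.

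Taken as shares of the 5 measured alpha genes per kilobase, the makeup was nearly fixed in 5 embryos. Gabra3 made up 46.4 to 49.1%, Gabra5 26.8 to 31.6%, Gabra2 16.0 to 20.0% and Gabra4 4.69 to 6.11% there. In Bahd1-KO replicate 3 the shares were 26.8, 12.5, 13.6 and 12.8%, and Gabra6 took 34.4% (± 1.04, 95% counting error only), against 0.0178 to 0.748% elsewhere. Gabra2, Gabra3 and Gabra5 together made up 93.8, 94.0 and 52.9% in the Bahd1-KO brains and 93.7, 95.3 and 94.7% in the Bahd1-WT brains. The difference of means, -14.3 percentage points, gave p = 0.3 in the exact permutation test and was -0.647 without Bahd1-KO replicate 3.

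**Figure D4:**
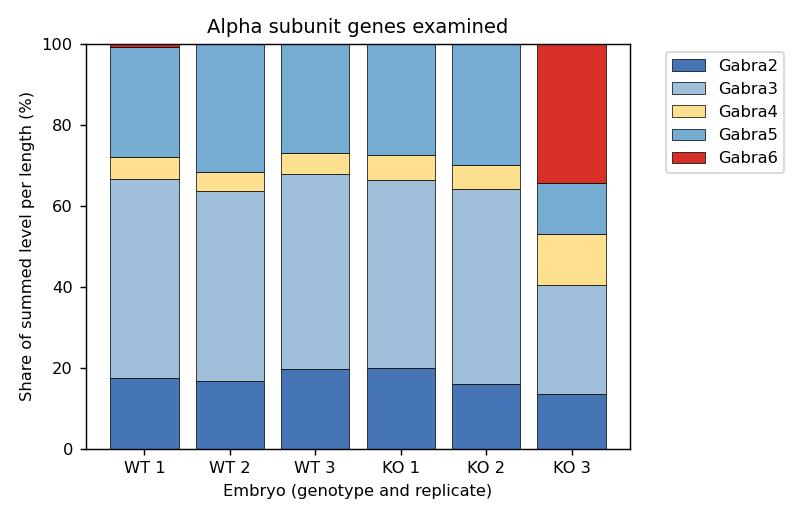
Share of each alpha subunit gene, in percent of the summed CPM per kilobase of Gabra2 to Gabra6, stacked for each of 6 embryos. The bars are alike in 5 embryos, and Gabra6 fills 34.4% of the bar of Bahd1-KO replicate 3.

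Beta subunits, which every common GABAA receptor contains, did not separate the genotypes. Gabrb1 stood at 109, 76.9 and 95.2 CPM in the Bahd1-KO brains and 122, 87.3 and 47.2 in the Bahd1-WT brains. Gabrb2 stood at 105, 75.5 and 87.2 CPM against 120.1, 91.2 and 48.4. Both were lowest in Bahd1-WT replicate 3, with the Bahd1-KO embryos inside the wild-type range, and log2 differences were 0.14 (SE 0.37) and 0.05 (SE 0.36). They kept a nearly constant proportion, with 1.04, 1.02 and 1.09 counts of Gabrb1 per count of Gabrb2 against 1.01, 0.957 and 0.974. The genes lie on chromosomes 5 and 11, and this ratio was picked after the values were seen.

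Gamma subunits link receptors to the synapse, and the delta subunit takes their place outside it. Gabrg1 stood at 43.5, 35.7 and 12.9 CPM in the Bahd1-KO brains and 46.3, 24.2 and 22.0 in the Bahd1-WT brains (log2 difference -0.01, SE 0.50, or 0.34 without Bahd1-KO replicate 3). Gabrg3 stood at 34.6, 21.8 and 18.2 CPM against 37.7, 26.0 and 13.5 (log2 difference -0.05, SE 0.43, or 0.11 without it). Groups overlapped for both genes. Gabrd had 77, 115 and 336 counts, or 1.18, 1.36 and 6.23 CPM, against 106, 107 and 86 counts, or 0.85 to 1.21 CPM. Bahd1-KO replicate 3 stood at 5.45 times the mean of the other 5, and the log2 difference of 1.46 (SE 0.71, edgeR adjusted p = 0.696) was 0.25 without it.

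The epsilon, pi and theta subunits belong to rarer receptors. Gabre stood at 1.88, 1.89 and 4.50 CPM in the Bahd1-KO brains and 2.08, 2.11 and 1.87 in the Bahd1-WT brains, with a log2 difference of 0.45 (SE 0.46), or -0.11 without Bahd1-KO replicate 3. Gabrq stood at 13.9, 13.1 and 6.06 CPM against 18.0, 12.4 and 8.76, with -0.24 (SE 0.43), or 0.04 without that embryo. Neither gene's groups separated. Gabrp, whose pi subunit is best known from epithelia outside the brain, had 3, 9 and 199 counts in the Bahd1-KO brains and 2, 2 and 2 in the Bahd1-WT brains. It was the one member whose groups did not overlap, beside 4.47% of all genes higher in this way, while 0 members were lower beside 2.24%. The ratio of scaled counts was 49.1 (exact 95% interval 22.2 to 135, counting error only), from 211 counts against 6. For Bahd1-KO replicates 1 and 2 alone it was 3.80 (1.32 to 12.3), from 12 counts against 6. Of the 211 counts, 199 came from Bahd1-KO replicate 3, and of the 12, 9 came from replicate 2. Both intervals pool embryos and leave out the spread between them, so they do not test the genotype. With 6 Bahd1-WT counts in all, Gabrp passed the filter on low counts only through its Bahd1-KO counts. The fitted log2 difference was 5.82 (SE 1.78), or 1.82 (SE 0.69) without Bahd1-KO replicate 3. The edgeR p was 0.0131 before and 0.696 after adjustment, and without Bahd1-KO replicate 3 it was 0.0308 and 0.981. Without that embryo the groups of Gabrp did not overlap either, nor did those of Gabrr3. These 2 of 26 members were higher in this way beside 6.3% of all genes, and most of their counts were then at or under 3. Lung and airway markers summed to 1578 CPM in Bahd1-KO replicate 3 against 22.8 to 41.5 in the other 5 embryos, with 7 of the genes highest there, and their part in the Gabrp count was not tested.

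Gabrr1, Gabrr2 and Gabrr3 were near the limit of detection, where 3 counts correspond to 0.0297 to 0.0556 CPM. Gabrr1 had 17, 38 and 2 counts in the Bahd1-KO brains and 45, 30 and 29 in the Bahd1-WT brains, with a log2 difference of -0.53 (SE 0.79), or -0.04 without Bahd1-KO replicate 3. Gabrr2 had 6, 17 and 12 counts against 20, 13 and 32, with -0.39 (SE 0.59), or -0.59 without it. Groups overlapped for both. Gabrr3 had 3, 7 and 0 counts against 3, 1 and 3, too few to compare. Its fitted log2 difference was 0.85 (SE 1.04), or 1.37 without Bahd1-KO replicate 3.

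GABAB receptors pair the ligand-binding subunit of Gabbr1 with the G protein-coupling subunit of Gabbr2. Gabbr1 stood at 384, 441 and 219 CPM in the Bahd1-KO brains and 473, 502 and 412 in the Bahd1-WT brains. Bahd1-KO replicates 1 and 3 lay below the wild-type range and replicate 2 within it, and the log2 difference was -0.41 (SE 0.31, edgeR adjusted p = 0.696), or -0.18 without replicate 3. Gabbr2 stood at 97.3, 123 and 115 CPM against 143, 143 and 83.4, overlapping groups with a log2 difference of -0.14 (SE 0.28). Counts of Gabbr1 per count of Gabbr2 were 3.94, 3.60 and 1.91 against 3.31, 3.51 and 4.94, lowest in Bahd1-KO replicate 3.

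Of the chloride cotransporters, Slc12a2 stood at 115, 78.8 and 368 CPM in the Bahd1-KO brains and 95.7, 67.0 and 77.8 in the Bahd1-WT brains. Bahd1-KO replicate 3 held 4.25 times the mean of the other 5, replicate 1 lay above the wild-type range and replicate 2 inside it. The log2 difference was 1.22 (SE 0.57, edgeR adjusted p = 0.696), or 0.25 without replicate 3. Slc12a5 stood at 51.1, 105 and 62.4 CPM against 90.0, 111 and 90.0, with Bahd1-KO replicates 1 and 3 below the wild-type range and replicate 2 inside it. Its log2 difference was -0.42 (SE 0.32), or -0.32 without replicate 3.

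Within each embryo there were 0.446, 1.33 and 0.169 counts of Slc12a5 per count of Slc12a2 in the Bahd1-KO brains and 0.941, 1.66 and 1.16 in the Bahd1-WT brains. On the log2 scale the values were -1.16, 0.41 and -2.56 against -0.09, 0.73 and 0.21. The groups overlapped through Bahd1-KO replicate 2, and the difference of means, -1.39, gave p = 0.3 in the exact two-sided permutation test. Without Bahd1-KO replicate 3 it was -0.66, and without Bahd1-KO replicate 2 it was -2.15. Markers of neurons, the cells in which Slc12a5 is expressed, summed to 2543 CPM in Bahd1-KO replicate 3 against 8775 to 10789 in the others, with 6 of 10 genes lowest there and 1 highest. Markers of radial glia and astrocytes summed to 2406 CPM there against 1044 to 1510, but they went both ways, with 5 of 8 genes highest and 2 lowest. Slc1a2, a glutamate transporter gene of astrocytes, was at 1614 CPM against 175 to 340.0, and Fabp7, a gene of radial glia, at 14.7 against 423 to 575. In Bahd1-KO replicate 1 hindbrain markers summed to 0.778 CPM, against 10.1 to 62.5 in the others. The part of these lists in the ratio was not tested.

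**Figure D5:**
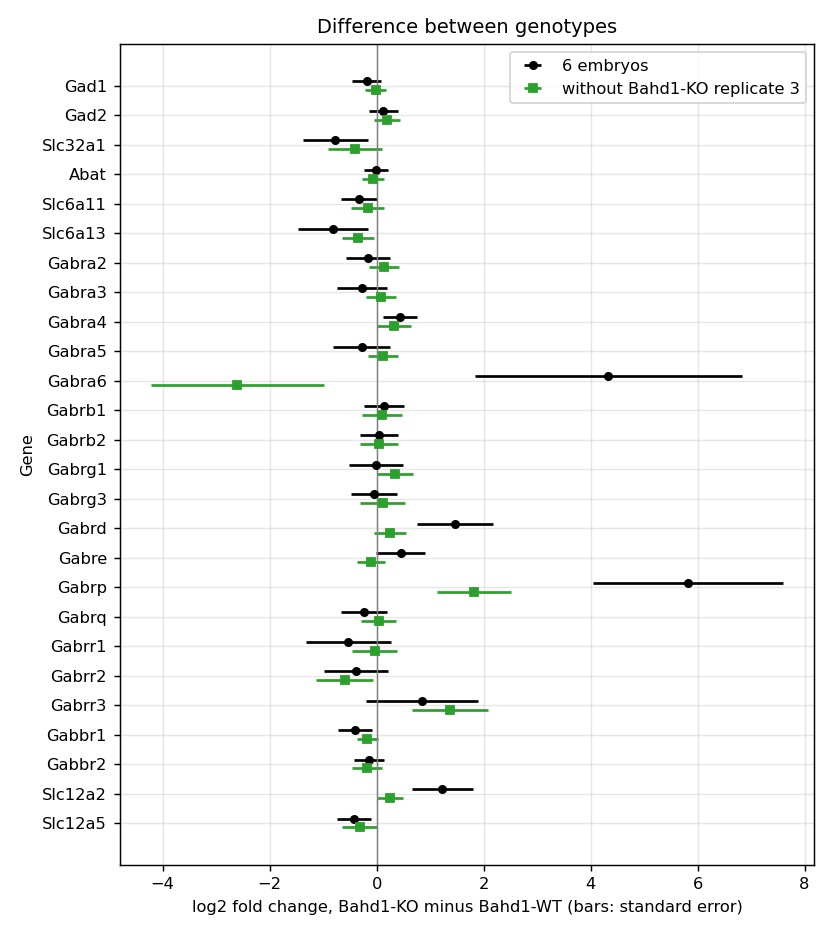
Fitted log2 fold change (Bahd1-KO minus Bahd1-WT) with its SE for each member gene, with all 6 embryos and without Bahd1-KO replicate 3. Gabrp (5.82), Gabra6 (4.33), Gabrd (1.46) and Slc12a2 (1.22) have the highest values with all embryos, and Gabra6 turns to -2.60 without that embryo.

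Member genes lie in groups on the genome (GRCm38). Gabrg1, Gabra2, Gabra4 and Gabrb1 share chr5:70751047-72149037, where Gabra4 and Gabrb1 overlap by 196 bases at their 5′ ends on opposite strands. Gabre, Gabra3 and Gabrq share chrX:72255999-72842602. Neighbours did not move as blocks in Bahd1-KO replicate 3: on chromosome 5 it was highest for Gabra4, lowest for Gabra2 and Gabrg1 and between the others for Gabrb1, and on chromosome X highest for Gabre and lowest for Gabra3 and Gabrq.

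Genes acting around these members gave 0 calls in each of 5 lists, and 0 at an unadjusted p under 0.05. Of 18 genes for receptor anchoring and trafficking, 4 had fitted log2 differences above 0 and 14 below, with a median of -0.13. Clptm1, which retains GABAA subunits in the endoplasmic reticulum, had the lowest unadjusted p there (63.3 ± 18.6 CPM against 91.6 ± 14.9, SD, n = 3, log2 difference -0.53), and Ubqln1, which stabilises them, the highest level (219 ± 33.4 against 237 ± 14.9, log2 difference -0.11, or -0.0037 without Bahd1-KO replicate 3). Of 8 genes for auxiliary and effector proteins of GABAB receptors, 6 were above 0 and 2 below, with a median of 0.41 that fell to 0.05 without Bahd1-KO replicate 3. These included the auxiliary subunit genes Kctd12b (31.3 ± 25.4 against 13.5 ± 4.47, log2 difference 1.21, or 0.28 without that embryo) and Kctd12 (220.1 ± 91.0 against 238 ± 47.5, log2 difference -0.11, or 0.16 without it).

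Of 9 genes for the supply of glutamate and glutamine, 5 were above 0 and 4 below (median 0.02, or 0.0046 without Bahd1-KO replicate 3). The glutamine transporter genes Slc38a3 and Slc38a1 had log2 differences of -0.73 and -0.17, which became -0.36 and 0.10 without that embryo. Of 13 genes for other cation-chloride cotransporters and the kinases that regulate them, 6 were above 0 and 7 below (median -0.03, or 0.03 without it). Their kinase genes Wnk2 and Wnk1 stood at 50.7 ± 38.2 CPM against 108 ± 48.8 and at 471 ± 235 against 330 ± 61.9, log2 differences of -1.09 and 0.51 that became -0.70 and 0.02 without Bahd1-KO replicate 3. Of 7 genes of glycine transmission, 5 were above 0 and 2 below, with a median of 0.39 that fell to 0.07 without Bahd1-KO replicate 3. Glra1, a glycine receptor subunit of brainstem and spinal cord, had 9, 62 and 518 counts against 72, 51 and 20, with a log2 difference of 2.77, or -0.20 without that embryo. Glra2, the embryonic subunit, stood at 76.8 ± 63.6 CPM against 101 ± 26.2, with a log2 difference of -0.40, or 0.14 without it.

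The remaining marker lists and the hindbrain list placed the embryos as follows, as summed CPM with no test. Glutamatergic neuron markers were 1525, 1110 and 234 in the Bahd1-KO brains and 1201 to 1306 in the Bahd1-WT brains. Dividing progenitor markers were 825, 617 and 1229 against 622 to 855, but in Bahd1-KO replicate 3 they went both ways, with 4 of 8 genes highest and 4 lowest. The cell cycle gene Mki67 was at 663 CPM there against 151 to 268, and Eomes, of intermediate progenitors, at 5.23 against 57.1 to 105. Hindbrain markers were 0.778, 25.1 and 62.5 against 10.1 to 17.6, lowest in Bahd1-KO replicate 1, where Glra1 also had its fewest counts. Choroid plexus markers were 296, 782 and 163 against 358 to 747, a sum led by Ttr (56.0 CPM in Bahd1-KO replicate 3 against 238 to 695), while 4 of the 7 genes were highest in that embryo, Aqp1 at 49.4 CPM against 5.05 to 11.8. Blood markers were 161, 592 and 420.5 against 133 to 501, skeletal muscle markers 2.73, 4.82 and 147 against 4.23 to 12.8, and skin markers 12.9, 15.3 and 8.30 against 13.5 to 14.5. All 10 genes of the neuron list had counts in all 6 brains, and no marker gene was at 0 in every embryo. In Bahd1-KO replicate 3, however, 6 of these 10 were lowest and 1 highest. Dcx was at 33.0 CPM there against 1865 to 3713, and Tubb3 at 26.1 against 364 to 1556. The part of these lists in the members' values was not tested.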

How the data were processed

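RNA-seq was done on 6 embryo brains, grouped by the genotype and replicate number in the sample titles. The deposited table holds raw counts of reads per gene, 1 column per embryo, with technical runs merged and no normalization. According to the methods, the authors selected polyadenylated RNA and built stranded libraries for single-end reads. The submitters' processing notes name cutadapt 1.11, STAR 2.5.0a, featureCounts 1.4.6-p3, R 3.5.1, DESeq2 1.20.0 and build GRCm38. The supplement tells of paired-end sequencing with TopHat2 alignment too, for libraries it does not name. Strand-specific counting separates overlapping genes on opposite strands, and near-identical copies can lose reads.

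A gene entered the test when its 6 counts summed to 10 or more. The whole table was fitted with edgeR 4.0.16 (R 4.3.3), quasi-likelihood, two-sided, with TMM scaling and a genotype term alone, and p-values were Benjamini-Hochberg adjusted over all genes tested, with a threshold of 0.05. The script was tested on simulated counts in which no embryo stood apart as Bahd1-KO replicate 3 does. That checks the code and not the power of the test on these data. DESeq2 1.42.0 and limma 3.58.1 (voom) served as alternatives. DESeq2 gave no adjusted p for Gabra6, Gabrp and Gabrr3, and without Bahd1-KO replicate 3 none for Gabrp and Gabrr3. CPM is counts per 1e6 of the TMM-scaled total. Per-kilobase levels divided CPM by the summed exon length in GENCODE M21. Ratios within an embryo used counts plus 1 on the log2 scale. Permutation tests were exact over embryos (scipy 1.17.1). Intervals cover counting error only, and 3 counts were taken as the floor. Promoter sequences came from RefSeq.

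The members and lists were chosen with earlier results of these data known. Every member was named, with Bahd1 and, from each pathway list, the gene of lowest unadjusted p and the gene of highest mean CPM. Marker genes given singly and the ratios beyond Slc12a5 to Slc12a2 and Gad1 to Gad2 were chosen after their values were seen. Alternatives covered the filter, scaling, tool, replicate number and each embryo left out. A gene of the glutamatergic marker list was not analysed here.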

Additional observations from a re-analysis of the deposited data

How the results depend on the processing

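No member gene passed an adjusted p of 0.05 in any of 466 comparisons of members with alternatives (lowest adjusted p 0.195, for Gabra6 in edgeR with the replicate block and without Bahd1-KO replicate 3). DESeq2 comparisons without an adjusted p, of Gabra6, Gabrp and Gabrr3, are among the 466 and could not pass. At an unadjusted p under 0.05 edgeR's quasi-likelihood test gave 1 to 5 of 26 members with one embryo left out, beside 154 to 4878 of all genes. With all 6 embryos it gave 1 of 26, beside 1156 of 24739 genes. Without Bahd1-KO replicate 3 it gave 1 of 26, beside 345 of 23334 genes. No test set the members' counts against those of all genes. Over all genes, edgeR's 1 call became 8 with DESeq2, 6 with voom and embryo weights, 6 with the likelihood ratio test, and 0 with ribosomal and mitochondrial RNA genes left out (1094 at an unadjusted p under 0.05). It ran from 0 to 4 with one embryo left out, 0 in each case but Bahd1-KO replicate 3, and was 11 with DESeq2 without that embryo. Depth limits Gabrr3 and, outside Bahd1-KO replicate 3, Gabrp, which were mostly at or under 3 counts. The cause of the changes below was not tested.

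Of the 26 members, 12 kept their direction in every alternative and 14 did not. Log2 differences of the other sign follow. With the filterByExpr filter Gabrg1 was 0.018 and Abat 0.042. Abat was 0.0018 with DESeq2 size factors in edgeR and 0.0018 in DESeq2. With upper-quartile scaling Gabrg1 was 0.066, Gabrg3 0.040 and Abat 0.10. With total counts Gabrb1 was -0.040, Gabrb2 -0.12 and Gad2 -0.029, and the medians of the glutamate supply and cotransporter lists were -0.11 and -0.19. These scalings moved the median of all genes from 0.06 to 0.17 and -0.11. With voom, 16 members were above 0, and Gabra2 was 0.27, Gabra3 0.18, Gabra5 0.12, Gabrg1 0.57, Gabrg3 0.30, Gabre -0.047, Gabrq 0.15 and Gad1 0.029. With DESeq2 and Bahd1-KO replicate 3 left out, Gabra2 was 0.14, Gabra3 0.077, Gabra5 0.12, Gabra6 -2.57, Gabrg1 0.34, Gabrg3 0.11, Gabre -0.11 and Gabrq 0.038.

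With one embryo left out in turn, values ran from -0.56 to 0.13 for Gabra2, -0.59 to 0.079 for Gabra3, -0.61 to 0.12 for Gabra5, -2.60 to 7.74 for Gabra6, -0.16 to 0.44 for Gabrb1, -0.25 to 0.32 for Gabrb2, -0.34 to 0.38 for Gabrg1, -0.36 to 0.29 for Gabrg3, -0.11 to 0.66 for Gabre, -0.46 to 0.040 for Gabrq, -0.036 to 1.37 for Gabrr3, -0.074 to 0.27 for Gad2, -0.14 to 0.037 for Abat and -0.14 to 0.076 for the median of the glutamate supply list.

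Replicate numbers were shared between the genotypes. Deviations of same-numbered embryos correlated at 0.26, 0.34 and -0.12, within the range of differently numbered ones, -0.50 to 0.38. With so few embryos this cannot tell whether the number pairs them. Adding the replicate block left 0 calls over all genes in edgeR (517 genes had an unadjusted p under 0.05), and Gabrg3 was 0.015. With the block and Bahd1-KO replicate 3 left out it called 16, Gabra2 was 0.013, Gabra6 -2.77, Gabrb1 -0.19, Gabrb2 -0.25, Gabrg1 0.22 and Gabre -0.17, and the medians of the GABAB auxiliary and glycine lists were -0.051 and -0.17. Paired by number, the exact permutation p was 0.25 for both log2 ratios and 0.5 for the alpha share, where 0.25 is the smallest possible. These 3 differences kept their direction in every alternative.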
